A study of Homo sapiens with 6 samples.

Results

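The SULT1A genes are 4 closely related human genes on the short arm of chromosome 16, named SULT1A1, SULT1A2, SULT1A3 and SULT1A4. They are described here in HEK293 cells, a human embryonic kidney line, that expressed a GFP fusion of PKI1-24 (PKI) or of inPKI1-24 (inPKI), the control. Members were chosen by symbol, and all 4 were found among the 30960 genes of the deposited table. The set was proposed from the PKI against inPKI contrast of these same libraries, in which SULT1A4 had an adjusted p of 0.0490 in limma (0.0946 in edgeR and none given by DESeq2), so the members' values in that contrast are given as a description with no test. The genes nearest that threshold of 0.05 were C5orf66 on the inner side (adjusted p = 0.0435) and RPL17-C18orf32 on the outer side (adjusted p = 0.05002), both from limma. In that contrast 14 of the genes tested passed in the direction of PKI (0.0981%) and 4 in the direction of inPKI (0.028%).

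Cytosolic sulfotransferases move a sulfonate group from the donor PAPS to small molecules, which makes these more soluble in water and, for many hormones and transmitters, inactive. SULT1A1 is the main phenol sulfotransferase of the adult liver and is also found in platelets, and SULT1A2 is its close relative. SULT1A3 and SULT1A4 are recent copies of each other that encode the enzyme acting on dopamine and other catecholamines, known from gut and brain. Protein kinase A (PKA) is switched on by cAMP, and PKI proteins are its natural inhibitors, which occupy the catalytic subunit in place of a substrate.

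Both groups came from the same parent line, were transfected 1 day after plating with 158 ng of plasmid per square centimetre, and gave RNA after 48 h. There were 3 inPKI and 3 PKI libraries, lettered A to C within a group and made with an mRNA kit. The 1-24 in the names is as the labels give it, and what distinguishes the control insert is not stated beyond its name. The design text calls the cells transduced and the treatment protocol calls them transfected. No label ties a library to a culture of its own, so any p-value measures only how far these libraries vary, and that variation may be technical.

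The deposited values are CPM, which scale a gene's reads to the size of its library, and whole reads recovered from them came to 17244715 to 23589438 per library. One read was worth 0.0333 to 0.0437 CPM. Across genes, the Pearson r of log2(CPM + 1) between libraries was 0.995 to 0.997 within inPKI and 0.992 to 0.995 within PKI, with PKI C lowest at 0.989 to 0.993 against the others. Between groups it was 0.989 to 0.996. PKI C was closer to PKI A (0.993) and PKI B (0.992) than to the inPKI libraries (0.989 to 0.990). PKI A had 0.9950 with PKI B and 0.9940 to 0.9946 with the inPKI libraries. PKI B had 0.995 to 0.996 with the inPKI libraries, 0.995 with PKI A and 0.992 with PKI C. All 10 listed markers of HEK293 cells were expressed, at a summed 931 to 956 CPM in inPKI and 827 to 948 CPM in PKI. They include the neurofilament gene NEFL (68.5 to 59.8 CPM between the group means, adjusted p = 0.178) and the intermediate filament gene VIM (638 to 605 CPM, adjusted p = 0.627). Of the 4 measured liver markers 0 reached the filter and their sum was 0.312 CPM at most, and ALB, which encodes albumin, had 0.0780 CPM in inPKI and 0.0234 CPM in PKI. The T cell marker CD3E and the platelet marker PPBP were at 0. The intestinal transcription factor gene CDX2 had means of 28.2 (inPKI) and 24.0 CPM (PKI), while VIL1 (villin) was under 0.09 CPM in both group means. Fibroblast markers were COL1A1, a collagen gene at 17.5 and 18.5 CPM, and COL3A1 at 2.09 and 2.05 CPM, with DCN at 0.

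The sequences of the 4 genes show which of them reads can tell apart. In GENCODE 29 the first-listed coding transcripts of all 4 genes hold 885 coding bases without the stop codon, in 7 coding exons. SULT1A3 and SULT1A4 differ at 0 of these 885 bases. SULT1A1 differs from both at 49 bases (94.5% identity) and from SULT1A2 at 28 (96.8%), and SULT1A2 differs from the pair at 58 (93.4%). A stretch of 90 bases within 1 exon, coding bases 178 to 267, is shown because it holds the most sites that separate SULT1A3 from SULT1A1. Capitals mark the 16 sites at which the 4 genes are not all the same, and coordinates are GRCh38.

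SULT1A1 (chr16:28608485-28608574, minus strand): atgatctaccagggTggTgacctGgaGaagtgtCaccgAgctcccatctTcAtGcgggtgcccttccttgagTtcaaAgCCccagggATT
SULT1A2 (chr16:28595557-28595646, minus strand): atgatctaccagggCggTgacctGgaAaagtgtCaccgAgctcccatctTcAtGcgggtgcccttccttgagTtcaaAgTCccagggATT
SULT1A3 (chr16:30201010-30201099, plus strand): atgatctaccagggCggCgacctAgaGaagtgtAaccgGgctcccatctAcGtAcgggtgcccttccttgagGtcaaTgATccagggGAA
SULT1A4 (chr16:29461667-29461756, plus strand): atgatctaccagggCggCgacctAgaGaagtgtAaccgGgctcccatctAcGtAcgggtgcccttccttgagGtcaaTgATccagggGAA

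In this stretch SULT1A1 and SULT1A2 each differ from SULT1A3 at 15 of the 90 bases, and SULT1A4 at 0. A read from here can thus be placed with SULT1A1 or SULT1A2 or with the pair, but not with 1 copy of the pair.

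SULT1A1 (ENSG00000196502.11, 28605196 to 28623625) and SULT1A2 (ENSG00000197165.10, 28591943 to 28597109) lie side by side on the minus strand. SULT1A4 (ENSG00000213648.10, 29459889 to 29464976) and SULT1A3 (ENSG00000261052.5, 30199228 to 30204310) lie on the plus strand, in the 2 copies of a duplicated block of chromosome band 16p11.2, each behind a copy of BOLA2 and SLX1. All are protein-coding genes. The annotation also has a read-through gene in each block, SLX1A-SULT1A3 (30193892 to 30204310) and SLX1B-SULT1A4 (29455105 to 29464963), whose transcripts run from the SLX1 gene into the SULT1A gene. These positions are those of the annotation on GRCh38, whereas the submitters' processing notes name hg19.

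To see how much of each gene could be counted without sharing, all transcripts in GENCODE 29 were divided into overlapping windows of 100 bases. Of the 2295 windows of SULT1A4, 109 (4.75%) were in no other gene, and 94.9% were also in SULT1A3. Of these 109, 13 lay at the 3′ end of the longer of its 2 coding transcripts and 96 in a transcript annotated for nonsense-mediated decay. The shorter coding transcript had 0. SULT1A3 had 570 of 2906 windows to itself (19.6%), of which 49 lay in its 4 coding transcripts. For the read-through genes the shares were 3.40% (SLX1A-SULT1A3) and 0.772% (SLX1B-SULT1A4). For SULT1A1 it was 94.1% and for SULT1A2 95.5%. The read length of the study is not given in the sources used here, and with windows of 50 and 150 bases the SULT1A4 share was 2.75% and 6.67%.

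**Figure D1:**
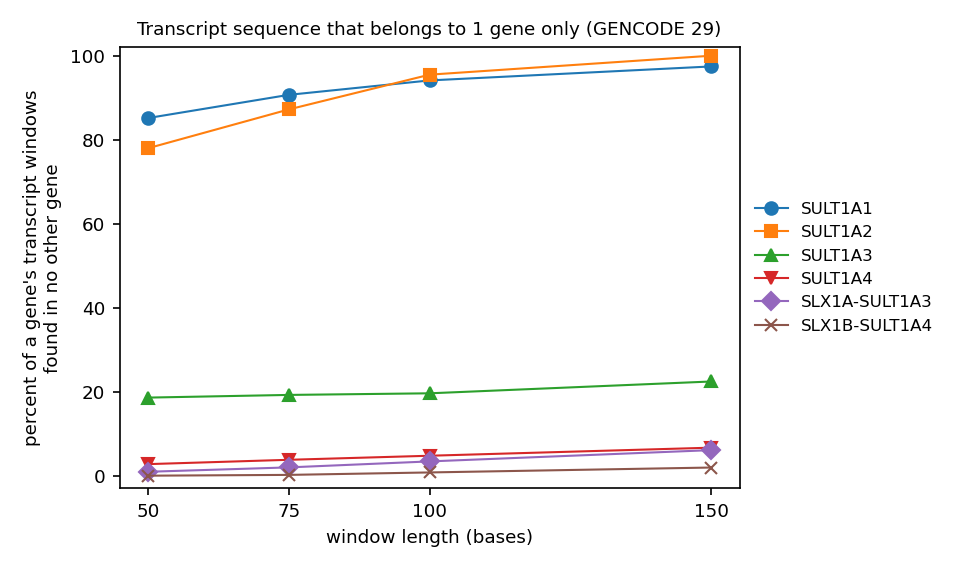
Share of each gene's transcript windows (percent, y axis) that occur in no other GENCODE 29 gene, against the window length in bases (x axis), for the 4 SULT1A genes and the 2 read-through genes. SULT1A1 and SULT1A2 lie above 75% at each length, SULT1A3 near 20%, and SULT1A4 and the read-through genes under 7%.

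The promoters of the pair were alike too. RefSeq promoter windows (GRCh38.p14) were found for 2 of the 4 members, SULT1A3 and SULT1A4, and their 250 bases before the start were identical, with a GC content of 48.8%. The first 220 bases of that window, which end before the first exon in GENCODE 29, are printed once, at the SULT1A3 position (chr16:30199005-30199224, plus strand), and stand at chr16:29459663-29459882 for SULT1A4.

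SULT1A3 and SULT1A4 promoter: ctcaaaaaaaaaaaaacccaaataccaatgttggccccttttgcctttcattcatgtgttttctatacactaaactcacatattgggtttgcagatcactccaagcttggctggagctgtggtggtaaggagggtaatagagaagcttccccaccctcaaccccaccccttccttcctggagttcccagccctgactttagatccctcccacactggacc

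PKA acts on transcription through CREB, which binds the cAMP response element. The full element TGACGTCA was in 1.65% of the 35116 RefSeq promoter windows, searched on both strands over the 250 bases before the start, and the shorter TGACG, which every full element also contains, in 21.2%. Neither was in the window of SULT1A3 or SULT1A4. The RefSeq windows of the read-through genes SLX1A-SULT1A3 and SLX1B-SULT1A4 both held TGACG, and neither held the full element. That says only where these letters stand in these windows, and binding was not tested.

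The catecholamine enzyme pair was measured at a low level. SULT1A4 had 1.25, 0.219 and 1.03 CPM in inPKI A, B and C (32, 6 and 25 reads) and 2.14, 4.23 and 3.50 CPM in PKI A, B and C (58, 127 and 80 reads). The PKI libraries did not overlap with the inPKI libraries and were higher, as in 10.9% of the genes tested, and inPKI B stood lowest by far. The means were 0.834 ± 0.543 CPM for inPKI against 3.29 ± 1.06 for PKI (SD, 3 libraries per group), a ratio of 3.95. On the log2(CPM + 1) scale PKI exceeded inPKI by 1.24 ± 0.22 (SE), which is the log2 change used from here on. This was the 15th highest of the 14275 genes tested, whose median was -0.0074, and it belongs to the contrast that chose the set.

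SULT1A3 had its lower mean in PKI. It had 5.23, 5.29 and 4.47 CPM in inPKI A, B and C (134, 145 and 108 reads) and 5.28, 1.13 and 3.11 CPM in PKI A, B and C (143, 34 and 71 reads). PKI B and PKI C lay below every inPKI library and PKI A among them, so the groups overlapped. The means were 4.99 ± 0.457 and 3.17 ± 2.08 CPM (SD, n = 3 each), and the log2 change was -0.65 ± 0.26 (SE), the 11th lowest of all genes tested. Without PKI B it was -0.24, and without PKI A -1.02.

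The sum of both rows does not depend on how reads were split between these 2 copies, though it still depends on their split with the read-through rows. The summed SULT1A3 and SULT1A4 reached 6.48, 5.51 and 5.50 CPM in inPKI (166, 151 and 133 reads) and 7.42, 5.36 and 6.60 CPM in PKI (201, 161 and 151 reads). The lowest of the 6 values, PKI B, and the highest, PKI A, were both in PKI, and the groups overlapped. The means were 5.83 ± 0.560 and 6.46 ± 1.04 CPM (SD, n = 3 each), a ratio of 1.11, with a log2 change of 0.12 ± 0.12 (SE). PKI B, which had the most SULT1A4 reads and the fewest SULT1A3 reads, had the lowest sum in CPM. In bulk RNA, a change in the number of expressing cells and a change in RNA per cell cannot be told apart.

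**Figure D2:**
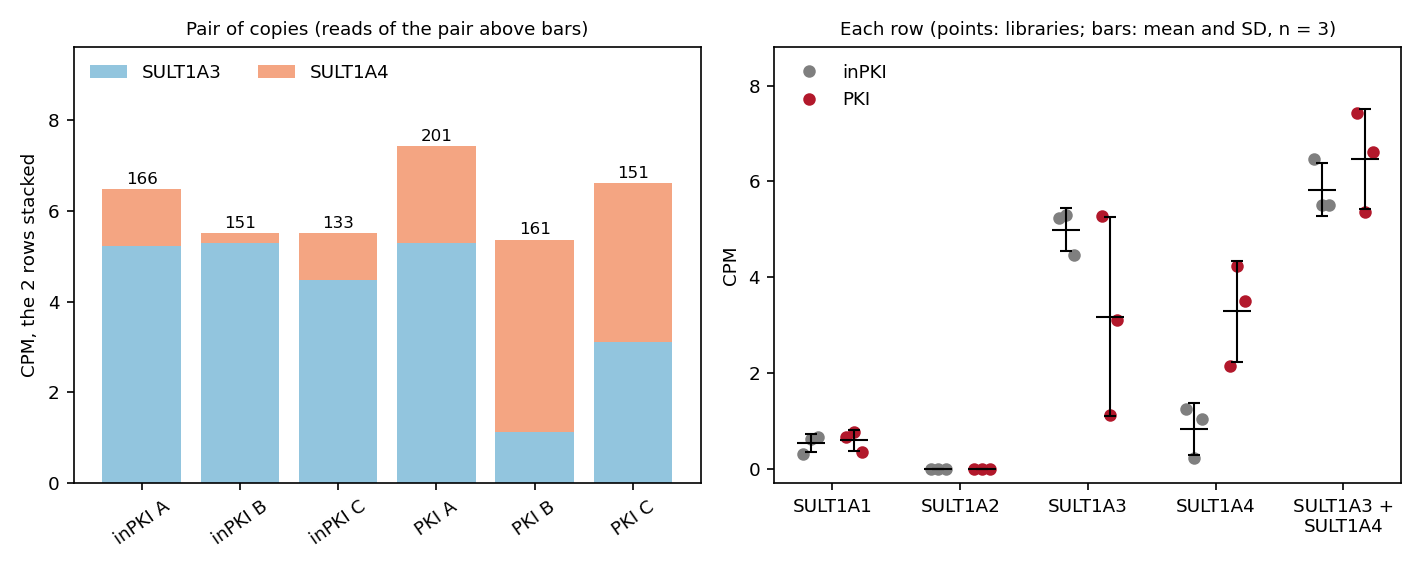
Left, CPM of SULT1A3 and SULT1A4 stacked for each of the 6 libraries, with the recovered reads of the pair above each bar. Right, CPM of each SULT1A gene and of the summed pair, with 1 point per library and the mean and SD (n = 3); the division of the bars shifts between libraries while their height stays within 5.36 to 7.42 CPM.

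The division of the pair's reads between the 2 rows differed widely between libraries. SULT1A4 held 19.3%, 3.97% and 18.8% of the pair in inPKI A, B and C. The exact 95% binomial intervals (Clopper-Pearson) were 13.6 to 26.1%, 1.47 to 8.45% and 12.5 to 26.5%. In PKI A, B and C it held 28.9% (22.7 to 35.6%), 78.9% (71.8 to 84.9%) and 52.98% (44.7 to 61.1%). The 3 PKI shares all exceeded the 3 inPKI shares, the means being 14.0 ± 8.70% and 53.6 ± 25.0% (SD, n = 3 each), a difference of 39.6 percentage points. Within PKI the intervals of the 3 libraries did not overlap each other, and within inPKI that of library B lay below the others. These intervals cover counting error only, and not the error of placing a read on 1 of 2 copies, which was not tested.

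When the reads of the read-through rows were added to their copy, the spread between libraries became smaller and the groups stayed apart. The SULT1A4 side then held 24.4%, 21.2% and 25.1% in inPKI and 31.8%, 35.8% and 33.1% in PKI, from 598 to 883 reads per library. The means were 23.6 ± 2.06% and 33.6 ± 2.02% (SD, n = 3 each), 9.99 points apart. These shares still hold the SULT1A4 and SULT1A3 rows of the contrast that chose the set, so they are a description only. With SLX1B and SLX1A added as well, the SULT1A4 side held 13.9%, 12.9% and 15.8% in inPKI and 21.4%, 24.7% and 26.9% in PKI, from 1092 to 1380 reads. The means were 14.2 ± 1.49% and 24.4 ± 2.78%, 10.1 points apart, an alternative chosen after seeing the data. On this scale every PKI library lay above every inPKI library. In CPM, 10.9% of the genes tested had PKI above inPKI with no overlap. This share also holds the members' rows, and SLX1B did not reach the filter. With BOLA2 and BOLA2B also added, likewise chosen after seeing the data, the SULT1A4 side held 56.2%, 31.7% and 32.4% in inPKI and 34.2%, 36.6% and 36.9% in PKI, from 2731 to 3404 reads. The groups then overlapped, inPKI A was the highest library, and the difference turned to -4.19 points. Without inPKI A it was 3.88 points.

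**Figure D3:**
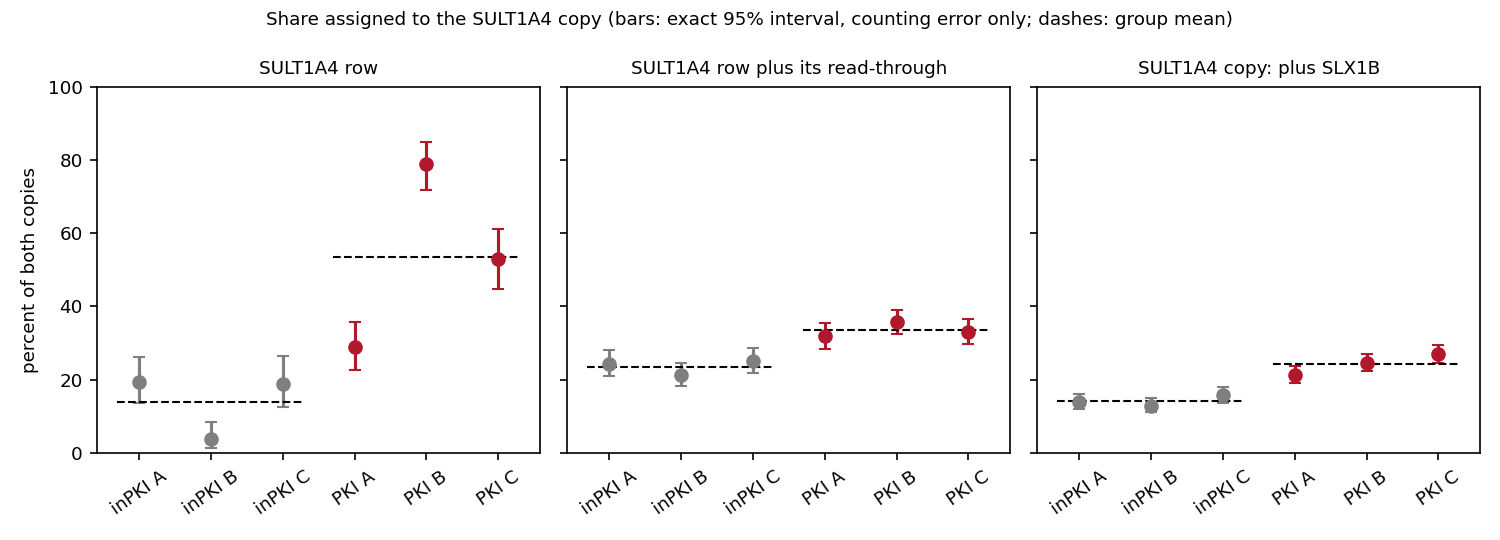
Share of reads assigned to the SULT1A4 copy (percent of both copies, y axis) in each of the 6 libraries, for the SULT1A4 row alone, with its read-through row, and with SLX1B as well. Bars are exact 95% intervals and dashes are group means; inPKI is grey and PKI red, and the PKI means are 53.6%, 33.6% and 24.4% against 14.0%, 23.6% and 14.2%.

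The rows beside the pair show which of them carried this. SLX1B-SULT1A4 had 4.45, 5.25 and 5.58 CPM in inPKI and 6.20, 6.29 and 7.87 CPM in PKI. Its groups did not overlap, with PKI higher, as in 10.9% of the genes tested. The log2 change of SLX1B-SULT1A4 was 0.35 ± 0.12 (SE, limma adjusted p = 0.222). SLX1A-SULT1A3 had 12.4, 15.0 and 15.3 CPM in inPKI and 12.6, 17.7 and 19.9 CPM in PKI, which overlapped, and its log2 change was 0.20 ± 0.13 (SE, adjusted p = 0.499). Without PKI C that change was 0.074, without inPKI A 0.11 and without PKI A 0.38. Of the 2 read-through rows together, SLX1B-SULT1A4 held 26.4%, 25.9% and 26.8% in inPKI and 33.0%, 26.2% and 28.4% in PKI, with overlap. The read-through rows thus held more reads than the rows of the genes themselves, and their split moved far less. With them in the sum, the 4 rows together had 25.1 ± 1.60 CPM for inPKI against 30.0 ± 4.09 for PKI (SD, 3 libraries per group), overlapping, and the log2 change was 0.24 ± 0.086 (SE), given with no test since it holds the members' values.

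SLX1A and SLX1B, copies of a structure-specific endonuclease subunit gene in the same blocks, split in the same direction. SLX1B had 12, 7 and 13 reads in inPKI and 38, 25 and 77 in PKI, or 0.420 ± 0.147 and 1.87 ± 1.33 CPM (SD of 3 libraries), and did not reach the filter. SLX1A had 20.4, 18.3 and 18.3 CPM in inPKI and 17.9, 15.7 and 17.0 CPM in PKI, with every PKI library below every inPKI library, as in 8.88% of the genes tested (log2 change -0.16 ± 0.077, SE, adjusted p = 0.368). SLX1B took 2.24%, 1.37% and 2.86% of their sum in inPKI and 7.27%, 5.03% and 16.5% in PKI. The sum of both SLX1 rows overlapped between the groups, with a log2 change of -0.052 ± 0.084 (SE). That sum, too, still depends on the split of reads with the read-through rows.

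BOLA2 and BOLA2B, copies of an iron-sulfur protein gene at the other side of each block, split differently. BOLA2, which lies in the SULT1A4 block, held 80.5% of their sum in inPKI A but 42.4 to 45.3% in the other 5 libraries. The single library that stood apart here was thus a control, and the PKI libraries were alike. The sum of BOLA2 and BOLA2B was 75.8 ± 2.69 CPM for inPKI against 66.5 ± 1.51 for PKI (SD, 3 libraries per group). Every PKI library was lower, as in 8.88% of the genes tested (log2 change -0.19 ± 0.053, SE, adjusted p = 0.168). Without inPKI A, the log2 change of BOLA2B turned from 0.27 to -0.22.

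Other near-identical gene pairs were set beside this one as a description. SULT1A4 was chosen for its change in this same contrast. A wide split of its pair follows in part from that choice, so no test is read from the comparison. Of 20 listed pairs, 16 had each row once in the table and 14 had both rows tested. In 1 of these 14, SULT1A3 with SULT1A4, a copy's log2 change lay at least 0.5 from that of the sum, at a distance of 1.12, and the next was BOLA2 with BOLA2B at 0.46. Without inPKI B or without inPKI C the count was 2. The share of the first copy ranged over 74.9 points among the 6 libraries for SULT1A3 and SULT1A4, over 38.1 for BOLA2 and BOLA2B, and over a median of 7.37 for the 14. SULT1A3 and SULT1A4 also had the lowest summed level of the 14, 6.14 CPM against 18.8 CPM for F8A1 and F8A3, the next, so these ranges come from different numbers of reads. The share did not overlap between groups in 1 of 14 pairs, SULT1A3 with SULT1A4, and the sum in 3 of 14. The chosen pair is itself counted in the 14 and in their median. In all, 19.7% of tested genes had groups that did not overlap.

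**Figure D4:**
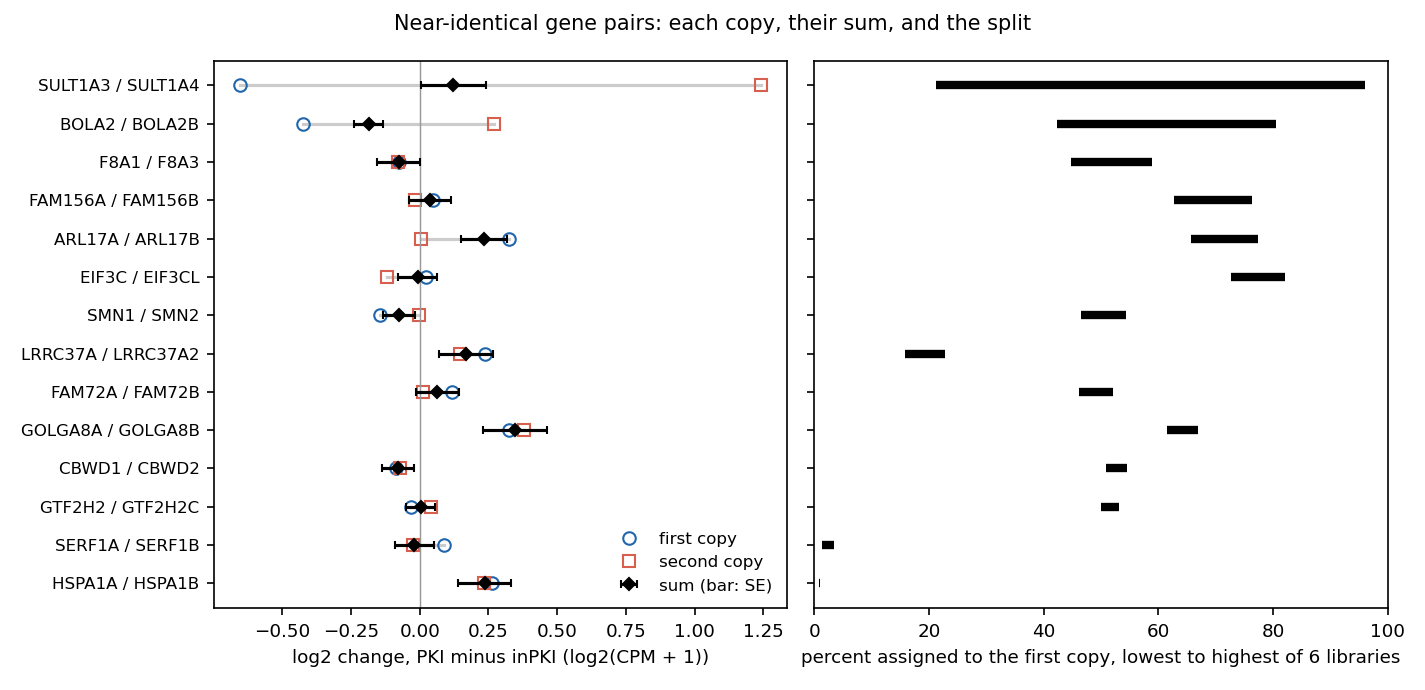
Left, log2 change (PKI minus inPKI, log2(CPM + 1)) of each copy and of the summed CPM, with its SE, for the 14 near-identical pairs with both rows tested. Right, the lowest to highest percent assigned to the first copy over the 6 libraries; SULT1A3 and SULT1A4 span 74.9 points and have copies on either side of a sum at 0.12.

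SULT1A1, the phenol enzyme, had few reads in either group. It had 8, 17 and 16 reads in inPKI (0.312, 0.620 and 0.662 CPM) and 18, 23 and 8 in PKI (0.665, 0.765 and 0.350 CPM). The groups overlapped, with means of 0.531 ± 0.191 and 0.593 ± 0.217 CPM (SD, n = 3 each). It fell below the filter of 1 CPM in 3 libraries and entered no test, and leaving out inPKI A or PKI B turned its log2 change of 0.056 to -0.052 or -0.023. SULT1A2 had 0 reads in all 6 libraries. A count of 0 allows up to 3 reads, which is 0.0998 to 0.131 CPM per library, for counting error only. Since 95.5% of its windows are its own, sharing with the other members leaves most of its length countable.

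Per kilobase of coding transcript, the level fell in the order SULT1A3, SULT1A4, SULT1A1, SULT1A2. In inPKI it was 4.99 ± 0.457, 0.726 ± 0.473, 0.414 ± 0.149 and 0 CPM per kilobase (SD, n = 3 each). SULT1A4 and SULT1A1 did not differ there beyond their spread. In PKI it was 3.17 ± 2.07, 2.87 ± 0.922, 0.463 ± 0.169 and 0, and SULT1A3 and SULT1A4 did not differ beyond their spread. The summed pair, at the mean length of both, had 5.42 ± 0.521 in inPKI and 6.01 ± 0.968 in PKI, above SULT1A1 in every library.

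In the authors' deposited table, whose input was not these 6 columns alone, the log2 fold change turned to PKI over inPKI was 1.99 for SULT1A4, with a standard error of 1.07 and a p of 0.0615 before adjustment. The same deposited table of the authors gave -0.64 for SULT1A3, 0.19 for SULT1A1, 0.43 for SLX1B-SULT1A4, 0.25 for SLX1A-SULT1A3 and 2.17 for SLX1B. Its adjusted p was 0.9999 for each of these 6, and so in the authors' deposited table none of them passed. SULT1A2, at 0 in all 6 libraries here, had a mean signal of 1.16 there. Its log2 fold change there was -0.032, with no adjusted p given.

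By Pearson r of log2(CPM + 1) over the 6 libraries, the tested genes most like SULT1A4 were REST, a repressor of neuronal genes (r = 0.992), SYDE2 (r = 0.984), and POLE, the catalytic subunit of DNA polymerase epsilon (r = 0.984). An r over 0.95 was reached by 53 genes. For SULT1A3 they were GABPB2, a subunit gene of the transcription factor GABP (r = 0.991), CCDC3 (r = 0.988) and PTH1R, the parathyroid hormone receptor (r = 0.985), with 12 genes over 0.95. REST had 33.9 ± 1.55 and 37.2 ± 0.971 CPM in inPKI and PKI, and GABPB2 17.2 ± 0.245 and 16.3 ± 1.13 CPM (SD, n = 3 each). These points share 6 libraries, and among 14275 genes some r of this size arise from 6 points.

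No listed gene of sulfation or of the region passed the test. In limma 18 of the 14275 genes tested passed an adjusted p of 0.05, or 0.126%, and 13.7% had an unadjusted p below 0.05. Of the 53 tested genes of sulfation and of phenol and catecholamine metabolism, 0 passed in limma, nor in edgeR (0.0771% of all genes) or DESeq2 (1.77%), and 3 had an unadjusted p below 0.05. Among the other cytosolic sulfotransferases 8 of 9 were in the table and 1 was tested, SULT4A1, a brain form, which had 9.00 ± 0.227 CPM for inPKI against 10.6 ± 0.398 for PKI (SD, 3 libraries per group). Its groups did not overlap, with PKI higher, as in 10.9% of the genes tested. The difference was 0.22 ± 0.084 on the log2 scale (SE, limma adjusted p = 0.283). The other 7, among them the steroid enzymes SULT2A1 and SULT2B1 and the oestrogen enzyme SULT1E1, were under 1 CPM, and SULT1C3 was at 0.

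Genes that supply the donor PAPS were expressed in both groups. PAPSS1 and PAPSS2, the synthases, had 46.3 and 23.5 CPM in inPKI and 45.6 and 24.0 CPM in PKI. Of the 10 tested genes of sulfate uptake and PAPS supply, the smallest p belonged to BPNT1, a phosphatase that removes the spent donor (log2 change -0.13 ± 0.066, SE, adjusted p = 0.401). The highest level was that of IMPAD1, the Golgi form of that phosphatase, at 88.1 and 91.3 CPM. The median log2 change of the 10 was 0.040, against -0.0074 over all genes tested.

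Genes that remove sulfate, and those that add it in the Golgi, were measured next. Of 14 sulfatase genes 0 passed, with 0 at an unadjusted p below 0.05, and SULF2, which trims heparan sulfate, had the smallest p (-0.14 ± 0.069, SE, adjusted p = 0.387). The most abundant was SUMF2, a relative of the sulfatase-activating enzyme, at 110 and 103 CPM. Of 18 Golgi sulfotransferases 0 passed and 1 had an unadjusted p below 0.05, the chondroitin enzyme CHST3, at 19.2 ± 0.314 CPM for inPKI against 23.6 ± 0.468 for PKI (SD, 3 libraries per group), with a limma adjusted p of 0.110. The heparan sulfate enzyme NDST1 was highest, at 89.0 and 93.6 CPM.

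The substrates' other enzymes were measured as well. TH, the first enzyme of catecholamine synthesis, was at 0 in all libraries. Of 10 tested genes of catecholamine and phenol metabolism 0 passed and 1 had an unadjusted p below 0.05. That gene, GSTP1, a glutathione transferase and the most abundant of the list, had 241 ± 1.73 CPM for inPKI against 219 ± 18.2 for PKI (SD, 3 libraries per group), with a limma adjusted p of 0.336.

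The single-copy genes of 16p11.2 were compared as the rest of the region. Of the 22 tested genes between and beside SULT1A4 and SULT1A3, 0 passed and 0 had an unadjusted p below 0.05, with 7 above 0, 15 below 0 and a median log2 change of -0.073. SEZ6L2, a neuronal membrane protein gene, had the smallest p (-0.13 ± 0.066, SE, adjusted p = 0.383), and the glycolytic enzyme gene ALDOA was highest, at 889 and 844 CPM. Of the 13 tested genes around SULT1A1 and SULT1A2 0 passed and 1 had an unadjusted p below 0.05, the kinase gene SBK1, at 7.41 and 8.93 CPM (adjusted p = 0.362). TUFM, the mitochondrial elongation factor, was highest, at 372 and 347 CPM. With the 5 tested duplicated genes added, 0 of 40 passed in limma, edgeR and DESeq2, and 3 had an unadjusted p below 0.05.

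**Figure D5:**
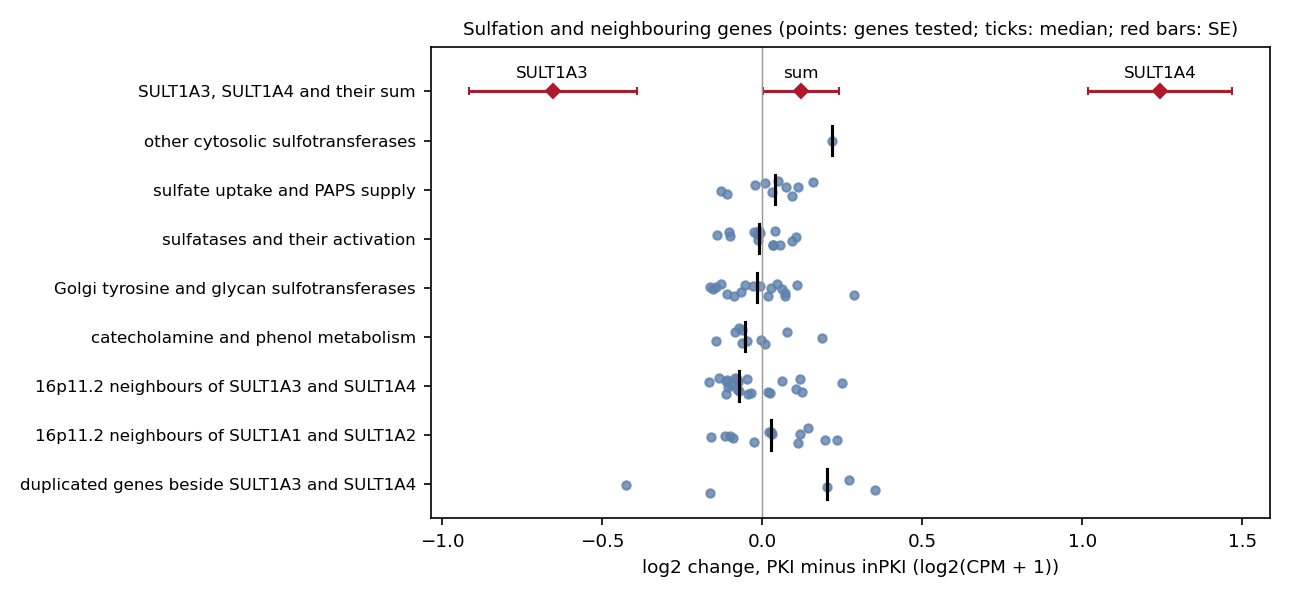
Log2 change (PKI minus inPKI, log2(CPM + 1)) of every tested gene in the lists of sulfation, of phenol and catecholamine metabolism and of 16p11.2 neighbours, with list medians as ticks. SULT1A3, SULT1A4 and their sum, with SE, are in the top row; the sum at 0.12 lies among the listed genes, and both single copies lie outside them.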

How the data were processed

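RNA of 6 HEK293 libraries was sequenced. The submitters' processing notes name hg19 as build and, without roles or settings, RSEM 1.3.0, STAR 2.5.2b, cutadapt 1.14 and DESeq2 1.20.0. The authors deposited a table of CPM, by its name RSEM counts scaled with TMM. Per the file headers, the authors' deposited comparison holds a Wald score, a signed fold change (also treated as a score), a log2 fold change, its standard error, raw and adjusted p-values and baseMean, a mean signal. Its log2 sign is opposite to that of its fold change in all 30960 rows, so it was turned. It has a mean above 0 in 2069 genes that are 0 in all 6 libraries, so its input was not these columns alone.

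Divided by the smallest value of its column, every CPM value (100%, to within 0.01 reads) came out whole, which gave whole reads. These may be rounded estimates. RSEM divides reads that fit several genes between them by estimation, so a row of a near-identical copy carries an error that read counts do not show.

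The 14275 genes with CPM of at least 1 in at least 3 libraries were fitted with limma 3.58.1 (R 4.3.3) on log2(CPM + 1), a scale on which changes of low genes are understated (trended empirical Bayes, 2-sided, Benjamini-Hochberg over all genes tested, threshold 0.05). Each adjusted p is limma's where no other source is named. Summed pairs replaced their rows in the same fit. edgeR 4.0.16 and DESeq2 1.42.0 were run on the recovered reads. The fits were also run on simulated reads, drawn for each gene on its own. Those hold no sharing of reads between copies, so they say nothing on the placing of reads. Intervals are exact binomial intervals from scipy. Other alternatives were pseudocounts of 0.25 and 5, no filter, a filter of 5 CPM, 2 rescalings, no trend, a replicate block and leaving out each library. Sequences and positions come from GENCODE 29 and RefSeq, and 30795 of 30960 identifiers matched.

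The members and lists were chosen with earlier results of these data known. Members, read-through rows and their sum are always named. Of each list, the tested gene with the smallest p and the one with the highest CPM are named where none passed. PAPSS1, PAPSS2, TH, PAX2, ALB, CD3E, PPBP, VIL1, DCN, COL3A1, SULT2A1, SULT2B1, SULT1E1, SULT1C3 and the SLX1 and BOLA2 genes were named after their values were seen. Protein sequences were not used here, and some listed genes are not reported here.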

Additional observations from a re-analysis of the deposited data

How the results depend on the processing

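The log2 change of SULT1A4 was above 0 under all 15 alternatives that gave a value, but its size depended on the scale of low values. It was 1.83 with a pseudocount of 0.25, 0.50 with a pseudocount of 5, 2.00 with edgeR and 1.99 with DESeq2, and 0.97 to 1.45 with 1 library left out. The filter of 5 CPM left the gene out. Its adjusted p, which chose the set, stayed below 0.05 under 5 of the 15 (0.0106 to 0.333 over those with one), not with edgeR (0.0946), a pseudocount of 0.25 (0.0824), median-ratio (0.0727) or equal-sum rescaling (0.0771), no filter (0.333), no trend (0.214), or without inPKI B (0.157), inPKI C (0.0721) or PKI C (0.0609), and DESeq2 gave none (unadjusted 0.00375). The summed pair stayed within 1 within-group SD of 0.12 under 17 alternatives (0.029 to 0.23 with 1 library left out). The share difference of 39.6 points was 9.99 with read-through rows, 10.1 with SLX1 rows also, -4.19 with BOLA2 rows also and 26.9 to 51.9 with 1 library left out. SULT1A1 turned to -0.052 without inPKI A and -0.023 without PKI B (range -0.052 to 0.17 with 1 library left out), and BOLA2B to -0.22 without inPKI A (range -0.22 to 0.54). SULT1A1 has no value with the 5 CPM filter, edgeR or DESeq2, and SULT1A2, at 0 throughout, has none at all.

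Of all genes, 18 passed (14 higher, 4 lower). The count was 4 with no filter, 4 without a trend, 11 with an equal sum of the columns (10 higher, 1 lower), 11 with edgeR, 253 with DESeq2 (119 higher, 134 lower) and 9 to 121 with 1 library left out (9 and 11 without inPKI B and inPKI A, 38, 46 and 121 without PKI A, PKI C and PKI B). With a replicate block it was 124. Deviations from the group mean correlated at 0.014 to 0.028 between same-letter libraries of the 2 groups. Between libraries of different letters, again 1 from each group, they correlated at -0.022 to 0.010. All were under the 0.1 set for pairing, so the letters were not used as pairs. Whether the letters mark a weaker pairing was not tested. The sulfation and 16p11.2 counts were 0 under all 16 alternatives. The number of pairs with a copy at least 0.5 from its sum was 0 with a pseudocount of 5 and 1 to 2 with 1 library left out. Depth limits what can be said of SULT1A1 and SULT1A2, and the error of placing reads on SULT1A3 or SULT1A4 was not tested.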
